A study of Mus musculus with 6 samples.

Results

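Peaks listed in cells with induced E2F1 were examined at the genes that encode the E2F transcription factors and their DP partners. The 10 genes, E2f1 to E2f8, Tfdp1 and Tfdp2, were taken by name and located on the mouse assembly GRCm38, among 21887 protein-coding genes on placed chromosomes. A peak was assigned to a gene when any of its bases lay inside the gene's annotated span or within 1000 bp of it. Chromatin immunoprecipitation followed by sequencing (ChIP-seq) had been done in the NIH/3T3 line, immortalised fibroblasts from mouse embryos. The cells carried a stably integrated doxycycline-inducible construct, either for E2F1 or an empty vector (EV), and each group held 2 libraries with a peak list of their own. Both groups had been starved in 0.25% serum for 48 hours, which puts the cells into a resting state, and had then received doxycycline for 12 hours. The treatment notes give 500 ng/ml, but the names of the peak lists carry another number, so the dose is not settled. A further 2 samples, input DNA of EV cells, were not analysed here. Whether the replicates came from separate cultures or clones is not given in the labels, and E2F1 was induced from a construct, so the lists describe cells with added E2F1.

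E2F proteins bind DNA at short GC-rich elements in promoters, mostly as a heterodimer with a DP protein. E2F1, E2F2 and E2F3 activate genes of the G1/S transition once the retinoblastoma protein releases them. E2F4 and E2F5 act mainly as repressors with the related pocket proteins in resting cells, E2F6 represses without pocket proteins, and the atypical E2F7 and E2F8 bind without a DP partner and repress the same kind of genes later in the cycle. Family members are themselves known as E2F targets, which makes the family a circuit of activation and feedback.

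The E2F1 lists held 7836 and 8027 peaks, and the EV lists 70 and 358. Fold enrichment is the authors' value for each peak, the read pileup at the summit over the local background. The pileup and the background in reads were solved from the deposited fold and p-value. The lowest background among the listed peaks, the only measure of depth here, was 1.85 and 1.86 reads in the E2F1 libraries and 2.20 and 1.18 reads in the EV libraries. These minima come from very unequal numbers of peaks, so they do not compare depth between the groups. Every list stopped at a p-value of 1e-10, so a gene without a peak may still have had weaker signal.

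Of the 10 family genes, 9 had a peak in both E2F1 lists, and each of these 9 had exactly 1 peak per list. E2f6 had none. Among all protein-coding genes, 36.9% had a peak in E2F1 replicate 1, 38.2% in E2F1 replicate 2 and 34.4% in both. Counting only peaks within 1000 bp of a gene boundary left 9 of the 10 family genes, against 30.9% of all protein-coding genes. No family gene had a peak in either EV list, where a peak at a gene was rare in any case, at 0.0366% of protein-coding genes for the first library and 0.407% for the second. The antibody is not given, so whether the EV lists could show the cells' own E2F1 is not known. The family share is a description, because the genes were chosen with results of these data known.

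For each of the 9 genes the peak number was 1 and 1 in the E2F1 libraries and 0 and 0 in the EV libraries, and the groups did not overlap. The exact two-sided permutation test over libraries gave p = 0.333 for each gene, the smallest value that 2 against 2 libraries allow, so this design cannot pass 0.05. The filter gives the fold that an EV site needed at the backgrounds seen among the listed peaks. At its lowest background, EV replicate 1 needed a pileup of 17 reads, a fold of 5.63, to pass the p-value filter, and EV replicate 2 needed 13 reads, a fold of 6.43. No higher background in these lists needed a higher fold. A lower one would have, and the background of the EV libraries at the family genes is not known. Of the 9 genes, 8 had folds above both values in both E2F1 libraries, and E2f4 in replicate 1 alone. Both values are below the median fold of all peaks in the E2F1 lists, 9.19 in replicate 1 and 11.3 in replicate 2. Most listed peaks therefore exceeded them as well, and the count is not particular to the family.

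**Figure D1:**
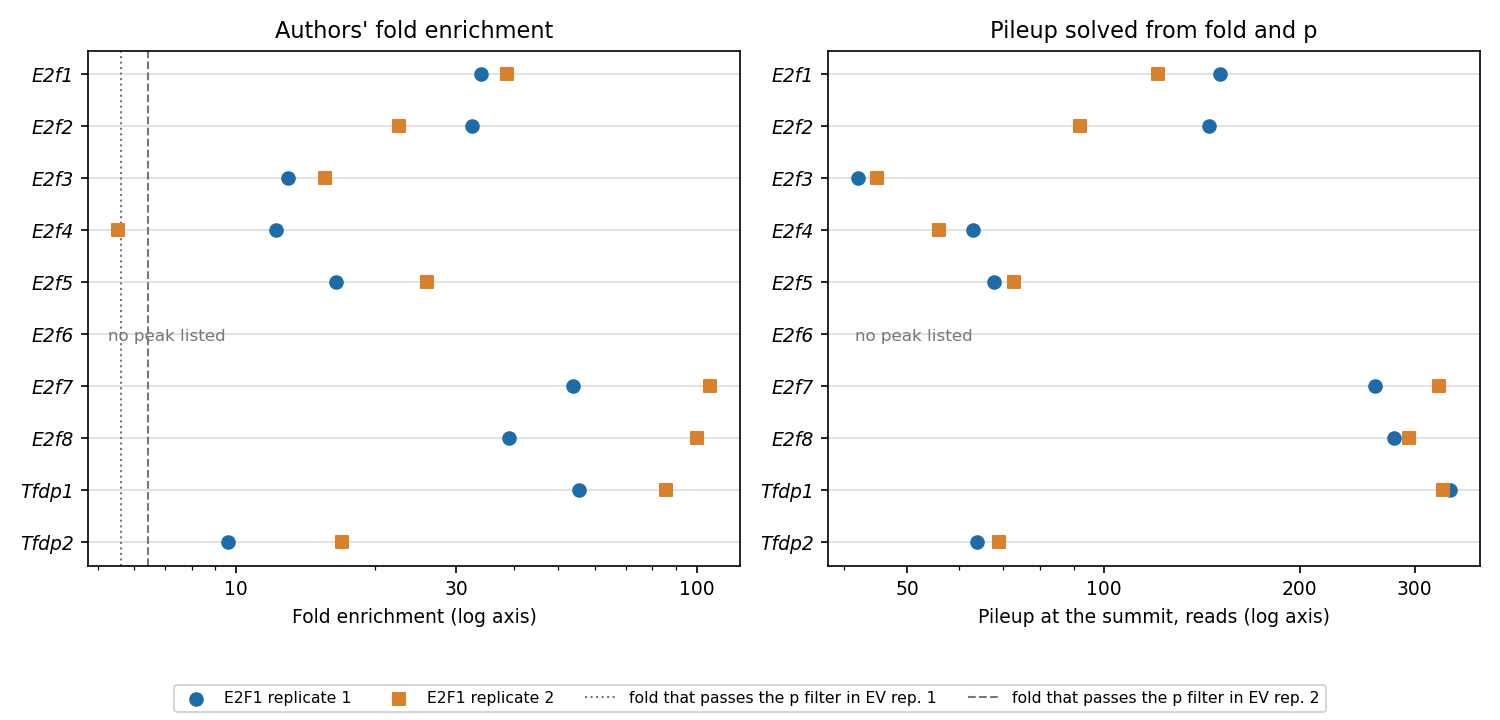
Authors' fold enrichment (left) and solved read pileup (right) of the 1 peak at each family gene in E2F1 replicate 1 (circles) and replicate 2 (squares), both on log axes, with the folds of 5.63 and 6.43 that passed the p-value filter at the lowest background of the EV libraries as vertical lines. E2f7, E2f8 and Tfdp1 stand apart by pileup, at 261 to 340 reads against at most 151. By fold they are also the highest 3 in each library. Their folds are 39.0 or more against at most 34.0 in replicate 1, and 85.8 or more against at most 38.8 in replicate 2. Across libraries the gap by fold is small, as E2f8 in replicate 1 lies beside E2f1 in replicate 2. The replicates lie closer together by pileup than by fold except at E2f1 and E2f2.

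The activator genes had peaks of medium to high rank. E2f1, the gene of the induced factor itself, is NCBI gene 13555 (chr2:154559400-154569892, minus strand). The peak spanned chr2:154568865-154570715 in E2F1 replicate 1, with a fold of 34.0 that ranked 169 in its list. In replicate 2 it spanned chr2:154569000-154570304, with a fold of 38.8 and rank 444. The solved pileups were 151 and 121 reads over backgrounds of 3.47 and 2.15 reads. The E2f1 peak was thus well inside the upper part of both lists, with 97.8% and 94.5% of peaks below it by fold.

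E2f2 encodes another activator (NCBI gene 242705, chr4:136172274-136196057, plus strand). Its peak had a fold of 32.4 and rank 216 in replicate 1, at chr4:136171909-136173771, and a fold of 22.6 and rank 1476 in replicate 2, at chr4:136172253-136173238. Here replicate 2 was the lower of the libraries in pileup as well, with 92 reads against 145, the lowest pileup ratio among the 9 genes at 0.634. The width also fell to 986 bp from 1863 bp.

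E2f3 (NCBI gene 13557, chr13:29906575-29986064, minus strand) has 2 promoters, from which a longer and a shorter protein, E2F3a and E2F3b, are made, and the promoter table placed their starts at positions 29986063 and 29984391 of chromosome 13. A single interval covered both starts in each library, chr13:29983713-29986089 in replicate 1 and chr13:29983610-29986576 in replicate 2. The widths of 2377 and 2967 bp were above those of 95.9% and 99.5% of the peaks in their lists. The folds, 13.0 and 15.6, were below those of E2f1 and E2f2, and the pileups of 42 and 45 reads were the lowest of the 9 genes. The E2f3 peak was therefore broad and low. Both summits lay near the outer start, 231 and 118 bp from it.

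The canonical repressor genes had peaks at the boundary with the lower coordinate. E2f4, which encodes the main E2F of resting cells, is NCBI gene 104394 (chr8:105297663-105305370). The peak spanned chr8:105297419-105298360 in replicate 1 and chr8:105297571-105298018 in replicate 2. Its folds were 12.2, rank 2519, and 5.54, rank 7332 of 8027, so that by fold E2f4 was near the bottom of the second list, with 8.66% of peaks below it. The pileups were alike at 63 and 56 reads, while the background was 4.24 reads in replicate 1 and 9.29 in replicate 2. The background in replicate 2 was higher than at 99.2% of the peaks in that list. The neighbouring gene Exoc3l lay 453 and 605 bp from these peaks, so by the same rule they belonged to it as well.

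E2f5, the gene of the other pocket-protein-bound repressor (NCBI gene 13559, chr3:14578602-14606309), had the tightest position of the family, with summits 2 bp apart. Its peak spanned chr3:14578537-14579506 in replicate 1 and chr3:14578510-14579214 in replicate 2. The folds were 16.5 and 25.9, ranks 1420 and 1131, and the pileups were 68 and 73 reads. E2f5 therefore ranked above E2f4 in both libraries by fold and by pileup.

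E2f6 (NCBI gene 50496, chr12:16810909-16826752, plus strand) encodes the repressor that works in Polycomb-type complexes, and it was the family gene without a listed peak in any of the 4 libraries. In the E2F1 libraries a fold of 5.97 in replicate 1 or 5.95 in replicate 2 would have passed the filter at the lowest background, so no site at E2f6 reached the filter, and weaker enrichment was not detectable. The sequence just before the annotated start of E2f6 (plus strand, RefSeq, GRCm38.p6, chr12:16810809-16810908) is shown because this is the promoter that lacks a peak. None of the E2F elements described below was in it, so no letters are in capitals.
E2f6: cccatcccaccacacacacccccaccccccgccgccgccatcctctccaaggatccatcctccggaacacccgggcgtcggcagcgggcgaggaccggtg

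The atypical repressor genes had the highest peaks of the family together with Tfdp1. E2f7 is NCBI gene 52679 (chr10:110745439-110787384, plus strand). The peak spanned chr10:110744409-110746545 in replicate 1, with a fold of 53.9 that ranked 22 in its list. In replicate 2 it spanned chr10:110744552-110746031, with a fold of 106.9 and rank 5. Among protein-coding genes with a peak, E2f7 stood at place 24 of 8085 in replicate 1 and at place 5 of 8364 in replicate 2. The pileups were 261 and 327 reads.

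E2f8 is NCBI gene 108961 (chr7:48866429-48882073, minus strand). The peak spanned chr7:48880373-48882730 with a fold of 39.0, rank 95, in replicate 1, and chr7:48880824-48882348 with a fold of 100.3, rank 8, in replicate 2. The pileups were nearly the same, 279 and 294 reads, while the background fell from 6.17 to 1.94 reads. E2f8 thus had the largest fold ratio between the libraries, 2.57, at a pileup ratio of 1.05. The E2f8 peak also overlapped the long non-coding RNA gene Gm2788, whose nearest boundary was 167 and 11 bp from the summits, so the signal cannot be assigned to E2f8 alone. Another non-coding RNA gene, LOC115486422, overlapped the peak in replicate 1 and lay 200 bp from it in replicate 2.

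Tfdp1 (NCBI gene 21781, chr8:13338725-13378448, plus strand) encodes DP1, the main DNA-binding partner of the E2F proteins. Its peak spanned chr8:13338079-13340025 in replicate 1 and chr8:13338202-13339560 in replicate 2. The folds were 55.4, rank 19, and 85.8, rank 20, and the pileups of 340 and 331 reads were the highest of the family in each library. Tfdp1 was among the top 23 genes in both libraries.

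Tfdp2, which encodes the other DP partner (NCBI gene 211586, chr9:96196246-96323646, plus strand), had a much lower peak. It spanned chr9:96195692-96197403 with a fold of 9.58, rank 3680, in replicate 1, and chr9:96195925-96196770 with a fold of 17.0, rank 2442, in replicate 2. The pileups were 64 and 69 reads. The 2 partner genes therefore differed by 5.79-fold and 5.05-fold in fold enrichment within the same libraries, and their values did not overlap. The peak lay at the outermost start of Tfdp2, and no peak was listed at the starts that the promoter table gives 62243 bp and more from the summits.

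Ordered by mean pileup (SD, n = 2), Tfdp1 with 335.5 ± 6.36 reads, E2f7 with 294.0 ± 46.7 and E2f8 with 286.5 ± 10.6 came first. E2f1 with 136.0 ± 21.2 and E2f2 with 118.5 ± 37.5 followed, and then E2f5 with 70.5 ± 3.54, Tfdp2 with 66.5 ± 3.54, E2f4 with 59.5 ± 4.95 and E2f3 with 43.5 ± 2.12. The ranges of the libraries overlapped between neighbours for E2f7 and E2f8, E2f1 and E2f2, and E2f5 and Tfdp2. Within each library E2f1 was above E2f2, with 151 against 145 reads and 121 against 92. E2f5 was above Tfdp2 in each, with 68 against 64 reads and 73 against 69. E2f7 and E2f8 changed places. With 2 libraries the order within these pairs is not settled. The ranges did not overlap between the first 3 genes and the others, where the lowest value of the first 3 was 261 reads and the highest of the others 151 reads.

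By mean fold the same 3 genes came first, in another order, and E2f4 took the last place. E2f7 had 80.4 ± 37.4, Tfdp1 70.6 ± 21.5, E2f8 69.7 ± 43.3, E2f1 36.4 ± 3.38, E2f2 27.5 ± 6.97, E2f5 21.2 ± 6.68, E2f3 14.3 ± 1.85, Tfdp2 13.3 ± 5.23 and E2f4 8.87 ± 4.72 (SD, n = 2). The libraries overlapped between neighbours in this order for E2f7 and Tfdp1, Tfdp1 and E2f8, E2f2 and E2f5, E2f3 and Tfdp2, and Tfdp2 and E2f4, so neither the order of the first 3 nor the last place is settled. Across the 9 genes the median ratio of replicate 2 to replicate 1 was 1.55 for fold, 1.05 for pileup and 0.581 for background. All 7138 overlapping pairs of peaks in the E2F1 lists had medians of 1.26, 1.00 and 0.753. The background was lower in replicate 2 at 8 of the 9 genes, E2f4 being the exception, while at E2f2 the pileup fell more than the background.

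By their median the peaks of the family were high within the whole lists, but those of E2f3, E2f4 and Tfdp2 were lower. In replicates 1 and 2, 71.2% and 65.8% of peaks were below E2f3 by fold. The shares were 67.8% and 8.66% for E2f4, and 53.0% and 69.6% for Tfdp2. The median fold of the 9 peaks was 32.4 in replicate 1 and 25.9 in replicate 2, against 9.73 and 12.0 for the strongest peak of all genes with a peak. In replicate 1 the lowest of the 9, Tfdp2 at 9.58, was below that median, and in replicate 2 only E2f4 was. With peaks limited to those at or above the median score of their list, 9 genes kept a peak in replicate 1 and 8 in replicate 2, E2f4 being the one lost. Among all protein-coding genes 19.8% and 20.4% had such a peak.

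All 9 peaks lay at 1 end of their gene. For the 7 genes with a peak whose strand the promoter table gives, that end was the start in both libraries. Among all protein-coding genes of at least 4000 bp with a strand and a peak, the summit of the strongest peak was within 1000 bp of the outermost start for 81.2% in replicate 1 and 82.0% in replicate 2. Among genes with the summit within that distance, it lay inside the gene, after this start, for 6 of the 7 family genes, against 79.0% and 73.1% of all protein-coding genes. E2f7 was the exception, with summits 251 and 240 bp before the start.

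The distances after the start were 170 and 188 bp for E2f1, 169 and 289 bp for E2f2, 232 and 119 bp for E2f3, 111 and 4 bp for Tfdp1 and 216 and 73 bp for Tfdp2, in replicates 1 and 2. At E2f8 they were 606 and 762 bp. Measured from the start that the promoter table lists inside E2f8, at position 48881596, they were 129 and 285 bp. E2f4 and E2f5 had summits 232 and 202 bp, and 139 and 141 bp, inside the boundary with the lower coordinate. The summits of the libraries were 2 to 156 bp apart, with a median of 107 bp, against a median of 56 bp over all overlapping pairs, so differences of this size between genes are within the error of the position.

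**Figure D2:**
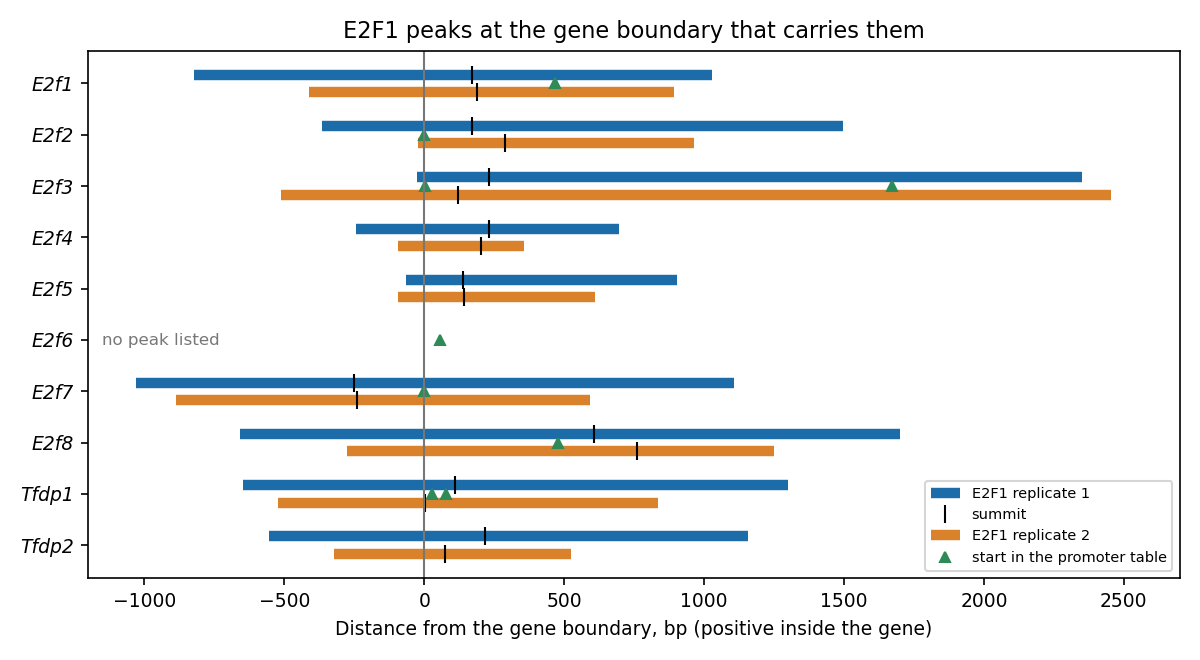
E2F1 peaks of replicate 1 (upper bars) and replicate 2 (lower bars) at each family gene, in bp from the gene boundary that carries them, positive inside the gene. Black ticks are summits and triangles are starts in the promoter table; for E2f4 and E2f5 the boundary is the one with the lower coordinate. The E2f3 bars reach over both starts of the gene, and the E2f7 summits lie before the boundary.

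Among the 9 family peaks the widest in each library was that of E2f3, which had the lowest pileup. The peaks at E2f7, E2f8 and Tfdp1 were 2137, 2358 and 1947 bp wide in replicate 1 and 1480, 1525 and 1359 bp in replicate 2, against list medians of 938 and 814 bp. The peaks at E2f4 and E2f5 were 942 and 970 bp in replicate 1 and 448 and 705 bp in replicate 2. Of the 9 genes, 8 had a narrower peak in replicate 2, with a median width ratio of 0.693 where all pairs had 0.901.

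Promoter windows of 300 bp, from 250 bases before a start to 50 after it, were present in the RefSeq table for 8 of the 10 genes, 12 windows in all. They were searched on both strands for the E2F elements TTTCCCGC, TTTCGCGC, TTTGCCGC and TTTGGCGC, and for the same elements without their first T. A match is a description of the letters, not a site of binding. The longer element was in windows of 4 genes, E2f2, E2f3, E2f7 and Tfdp1, and the shorter also in that of E2f8. By window, 5 of the family's 12 held the longer element and 6 the shorter. The windows of Tfdp1 overlap and share their match. Among all 32851 windows searched, 2.26% held the longer element and 9.57% the shorter. Windows that overlapped a peak in both E2F1 lists, 6993 in number, held them in 5.89% and 23.6% of cases, and windows outside the peaks of both lists in 1.09% and 5.13%. The windows inside peaks were also richer in GC, with medians of 65.7% against 49.3%, and in CpG, with 27 against 4 dinucleotides, and the part of base composition in this difference was not tested.

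The windows of E2f7 and Tfdp1 are shown because they belong to the highest peaks and hold an E2F element near the summit, and that of E2f3 because it holds the longer element beside the outer start. Capitals mark the shorter element on either strand. E2f7 (plus strand, chr10:110745189-110745438) is given for the 250 bases before its start, and Tfdp1 (plus strand, chr8:13338625-13338724) and E2f3 (minus strand, chr13:29986065-29986164) for 100 bases, all from RefSeq, GRCm38.p6.
E2f7: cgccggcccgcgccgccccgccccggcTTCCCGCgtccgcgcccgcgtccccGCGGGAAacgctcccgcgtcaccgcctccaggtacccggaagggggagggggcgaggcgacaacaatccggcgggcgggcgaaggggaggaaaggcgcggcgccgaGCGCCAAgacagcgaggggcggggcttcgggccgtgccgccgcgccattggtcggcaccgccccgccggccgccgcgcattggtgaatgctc
Tfdp1: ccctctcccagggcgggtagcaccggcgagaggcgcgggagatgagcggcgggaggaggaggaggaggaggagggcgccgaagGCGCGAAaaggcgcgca
E2f3: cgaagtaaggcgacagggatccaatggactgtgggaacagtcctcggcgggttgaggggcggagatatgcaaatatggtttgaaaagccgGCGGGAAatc

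The E2f7 window held 3 matches of the shorter element, of which the first was 31 and 20 bp from the summits of replicates 1 and 2 and the second 56 and 45 bp. In Tfdp1 the match was 125 and 18 bp from the summits. In E2f3 the matches were farther, 239 and 126 bp for the one printed above and 210 and 97 bp for another just inside the gene. These distances compare with 11, 107 and 113 bp between the summits of the libraries at E2f7, Tfdp1 and E2f3.

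The remaining matches lay inside the annotated spans and are printed as 30 bases each, with the same capitals. They are the site at E2f2 (plus strand, chr4:136172294-136172323), the inner site at E2f3 (minus strand, chr13:29986028-29986057) and the site at E2f8 (minus strand, chr7:48881690-48881719), from RefSeq, GRCm38.p6. The site at E2f2 was 126 and 246 bp from the summits and that at E2f8 237 and 393 bp.
E2f2: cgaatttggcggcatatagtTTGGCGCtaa
E2f3: cgcgggaggaccTTGGCGCgtaaaccgtat
E2f8: cagaggcgcggaTTGGCGCgcggggccccg

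The windows of E2f1, E2f6 and Tfdp2 held neither E2F element. For E2f1 the window lies at an inner start of the gene, at position 154569426, and does not reach the summits at 154569722 and 154569704. For Tfdp2 the windows are those of the inner starts, far from the peak. The windows of E2f6 and E2f1 were GC-rich, with 68.0% and 77.3% GC and 29 and 48 CpG dinucleotides, so E2f6 had no peak at a CpG-rich window.

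Other promoter elements were counted in the same windows. The CCAAT box, bound by NF-Y, was in windows of 4 of the 8 genes, E2f2, E2f3, E2f7 and E2f8. By window it was in 5 of the family's 12 and in 37.4% of all windows. Windows that overlapped a peak in both E2F1 lists held it in 35.9% of cases. The GC box GGGCGG, bound by Sp1-type factors, was in windows of 6 genes, all but E2f6 and Tfdp2, and in 35.7% of all windows. Among windows that overlapped a peak in both E2F1 lists it was in 77.2%, and among the family's 12 windows in 8. The E-box CACGTG was in windows of 2 genes, E2f3 and Tfdp1, against 7.15% of all windows. The element TTTGAA of the cell cycle genes homology region was in windows of 3 genes, E2f2, E2f3 and E2f8. By window it was in 3 of 12, against 17.9% of all windows and 9.31% of those in a peak of both E2F1 lists. At E2f2 the GC box and TTTGAA were in the window of the inner start alone, which no peak overlapped. At E2f8 the CCAAT box overlapped the E2F element.

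**Figure D3:**
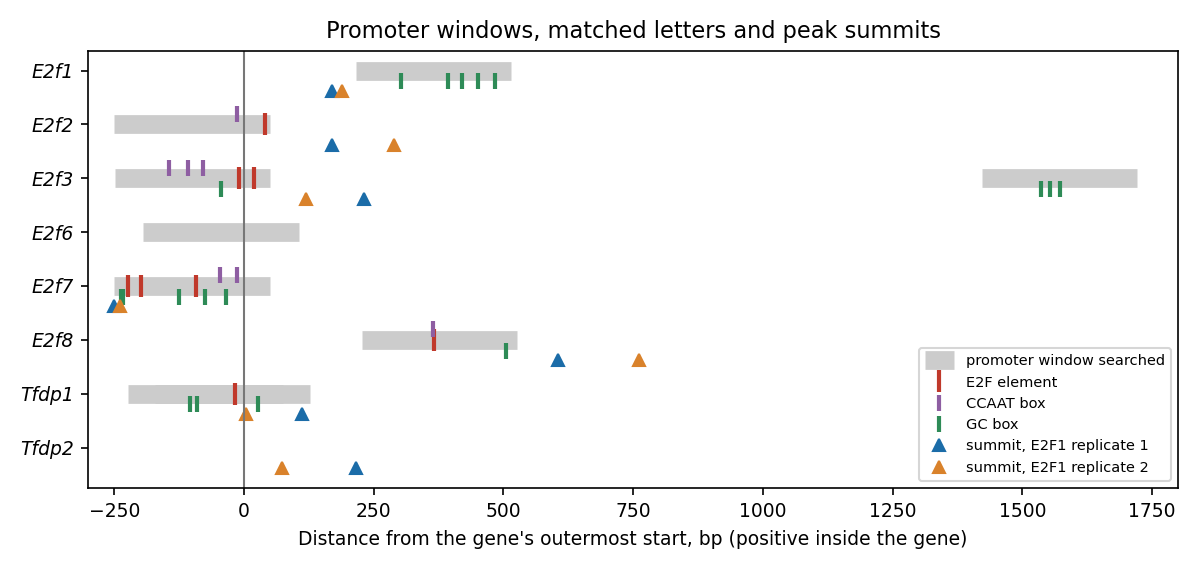
Promoter windows searched (grey), matched letters (vertical marks) and peak summits (triangles) of the 8 family genes in the promoter table, in bp from the outermost start of the gene, positive inside it. The inner windows of E2f2 and Tfdp2 are outside the axis. The summits of E2f7 lie 20 to 56 bp from its first 2 E2F elements, and those of E2f1, E2f2, E2f3 and E2f8 lie outside the windows drawn.

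The pathway around the family was described with the same rule. Of the pocket proteins, MuvB subunits and their partners, which hold E2F target genes silent in resting cells or drive them later in the cycle, 9 of 10 genes had a peak in both E2F1 lists, against the 34.4% of all protein-coding genes. The highest by mean fold over the libraries were Rb1, the retinoblastoma gene, with folds of 51.2 and 63.7, and Rbl1, which encodes the pocket protein p107, with 52.6 and 34.6. The exception was Lin37, a MuvB subunit, listed with a fold of 5.78 in replicate 2 alone. The medians over the 9 genes were 20.5 and 30.4.

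Of the D and E cyclins, their kinases and the CDK inhibitors, 10 of 15 genes had a peak in both lists, with medians of 19.2 and 36.8. Ccne1 and Ccne2, which encode the cyclins E that act with CDK2 at the start of S phase, were the highest by mean fold, with 65.0 and 131.6, and 45.3 and 64.5. Ccnd2, a cyclin D gene, was listed in replicate 1 alone, with a fold of 8.30. Ccnd1, Cdkn1c, Cdkn2a and Cdkn2b had no peak in either E2F1 list. NIH/3T3 cells are known to lack the Cdkn2a locus, and the lists cannot tell an absent locus from absent binding.

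Of the partners of E2F6 in its repressor complex, 5 of 8 genes had a peak in both lists, with medians of 15.4 and 19.6. Cbx3, which encodes a heterochromatin protein 1, was the highest by mean fold, with 23.5 and 71.0, followed by Rybp with 18.4 and 19.6. L3mbtl2 was listed in replicate 1 alone, with a fold of 7.34. Mga and Max, which encode the DNA-binding pair of the complex, had no peak in either list, as was the case for E2f6. None of the 33 genes in these lists had a peak in an EV library. The lists are short and were drawn up with results of these data known, so their shares and medians stand beside those of the family, 9 of 10 genes with medians of 32.4 and 25.9, as descriptions.

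**Figure D4:**
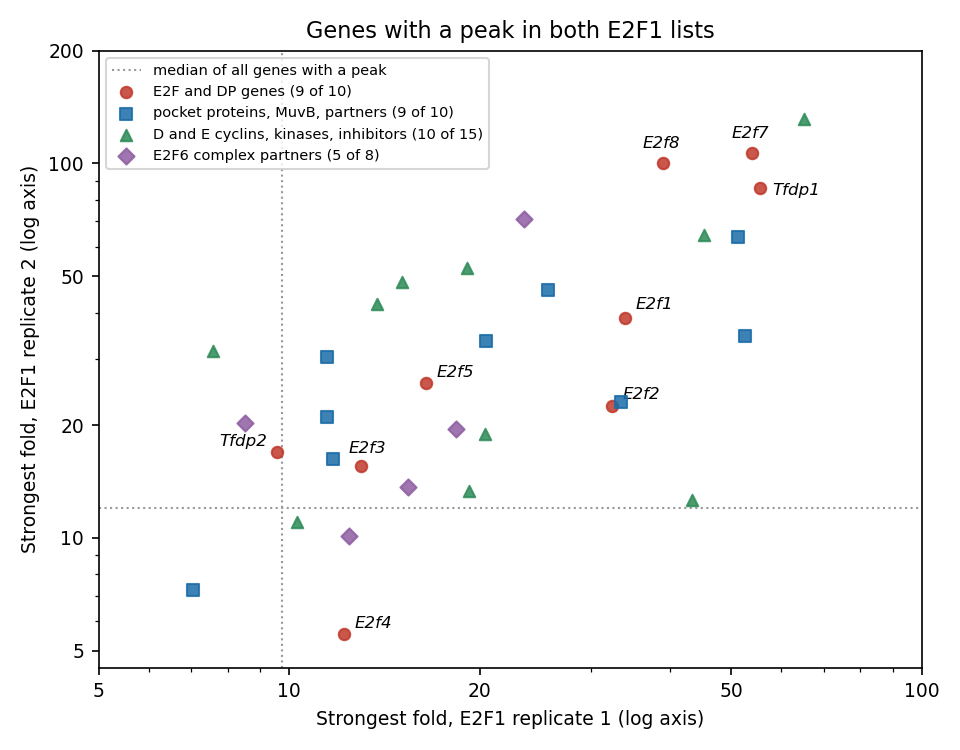
Strongest fold enrichment per gene in E2F1 replicate 1 (x axis) and replicate 2 (y axis), both on log axes, for genes with a peak in both lists, by gene list, with dotted lines at the medians of all genes with a peak, 9.73 and 12.0. E2f7, E2f8 and Tfdp1 lie at the upper right, near the point of Ccne1 at 65.0 and 131.6, and E2f4 lies lowest of all genes shown in replicate 2.

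The 3 protein-coding genes outside the family whose folds were most like those of E2f1, by Euclidean distance of the log2 folds over 2 libraries and 7537 genes, were Rmi2, Elk3 and Etaa1. Rmi2 had folds of 34.4 and 39.0, Elk3 33.2 and 38.5, and Etaa1 33.3 and 39.9, against 34.0 and 38.8 for E2f1. With 2 values per gene this likeness describes the level alone.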

How the data were processed

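The samples were ChIP-seq libraries of NIH/3T3 cells, 2 with an inducible E2F1 construct and 2 with an empty vector, grouped and numbered by their titles. Per the submitters' processing notes, the tools named were FastQC, Trimmomatic, Bowtie2, MACS2 and ChIPseeker and the build was mm10; versions, settings, antibody and the control of each list are not given in the sources used here. The extraction protocol in the labels describes RNA. Each sample had its own deposited peak list. The score is the authors' peak score, made from the q-value. The fold enrichment is a ratio deposited by the authors, pileup over local background. The −log10 p-value and q-value are also the authors' deposited values.

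Peaks were joined to a RefSeq gene table of GRCm38.p6 with a window of 1000 bp; all 10 symbols matched, and 8 of 10 matched the promoter table. Pileup and background were solved for whole-number pileups with fold as pileup plus 1 over background plus 1 and p as a Poisson upper tail; solutions lay within 5% of the step between pileups for 99.99% and 99.98% of the E2F1 peaks (first and second library) and 95.7% and 99.7% of the EV peaks. The joining and the solving were tested on simulated data. Peak numbers at single genes went into a two-sided exact permutation test over libraries. Named were all family genes, the 2 genes with the highest mean fold and every gene without a peak in both lists of each pathway list, the 3 genes most like E2f1 and genes sharing a peak. The alternatives were windows, the part of the peak counted, a stricter score, other ranks, shorter motifs and leaving out each library. Family and pathway genes were chosen with earlier results of these data known. Python 3.11.15, pandas 2.3.3, NumPy 2.4.6, SciPy 1.17.1 and matplotlib 3.10.9 were used.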

Additional observations from a re-analysis of the deposited data

How the results depend on the processing

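Of 157 alternatives computed over 23 results, 147 were labelled as leaving the direction and the value within its threshold or spread. This share does not measure stability. Of the alternatives, 90 were tests at single genes, where so few libraries cannot give a small p-value. E2f4 kept its label although its difference fell from 1 to 0.5 with peaks under the median score left out. For the percentile of a single gene the spread was the SD of 2 libraries, which leaving out 1 of them could not exceed. The number of family genes with a peak in both E2F1 lists was 9 with windows of 0, 500 and 2500 bp, by summit or centre, by overlap of the peaks, at gene boundaries and in each E2F1 list alone, and 8 with peaks under the median score left out, where E2f4 was lost. With the replicate number as a block, the difference of 1 peak per library at a gene kept its value and the exact sign-flip p was 0.5, the smallest that 2 pairs allow. With 1 value per library and gene, the lists cannot show whether the numbers pair the samples. The median distance of summits to the start of 179 bp became 241.5 bp by peak centres and ran from 188 to 216 bp in the single E2F1 lists. The number of genes with the longer E2F element was 4, and 2 in the 100 bases before the start alone, a shorter window by construction. The median percentile of the peaks by fold, 89.4, ran from 85.7 to 97.2 in the single E2F1 lists. Ranking by −log10 p or score moved E2f3 from 68.5 to 56.9 and E2f5 from 83.8 to 78.7, both beyond their SD. Tfdp1 went from 99.75 to 99.83, also beyond its SD of 0.0047. E2f4 went from 38.2 to 51.7, within its SD. The percentile of E2f4 rested on the library, with 67.8 in replicate 1 and 8.66 in replicate 2. The filter at a p-value of 1e-10 and the number of libraries limit every statement on a gene without a peak.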
